A study of Mus musculus with 11 samples.

Results

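The 3 arrays of mouse embryonic stem cells (ESC 1, ESC 2 and ESC 3) were set against each other, out of 11 arrays in all. The genes described were those at which ESC 1 differed in 1 direction by at least 1 log2 unit (2-fold) from both ESC 2 and ESC 3, and those at which ESC 2 and ESC 3 differed by at least 1 log2 unit. These genes were chosen by the differences between the arrays themselves, so every size below is a description and no test was made. Only the 17400 measured autosomal genes entered, each through 1 probe set, the one whose mean over all 11 arrays was the highest. The unit is log2 expression from RMA, a method that summarizes the probes of a probe set and normalizes between arrays, and the values are called levels below.

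Total RNA was taken from undifferentiated embryonic stem cells, which the labels call genetically matched to the other samples. As reference served 6 arrays of induced pluripotent stem cells, 3 derived from ventricular myocytes (ViPSC) and 3 derived from tail tip fibroblasts (TiPSC), together called the induced arrays. The source cells, tail tip fibroblasts (TTF) and ventricular myocytes (VM) of pups at postnatal day 1, had 1 array each. All samples carried a mixed C57/Bl and BlackSwiss background, and the labels name no allele, line or agent that sets the 3 ESC arrays apart, nor the factors behind the induced cells. Embryonic and induced cells were grown in serum and LIF on feeder fibroblasts stopped by irradiation, and the feeders were taken off by differential plating. The labels do not say whether the 3 ESC arrays came from separate cultures or lines, and 1 array on each side of a difference limits its precision.

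Cultured embryonic stem cells are known to be a mixture of states. A few cells can switch on genes of the primitive endoderm, an extra-embryonic epithelium that arises beside the epiblast. That epithelium later forms the parietal and visceral yolk sac. Another rare state, called 2-cell-like, expresses transcripts that normally mark activation of the embryonic genome, among them the transcription factor Dux and its targets. Germline genes form a further variable group, since many of them are held silent by DNA methylation of CG-rich promoters. In RNA from a bulk of cells, a change in the number of cells of a type and a change in RNA per cell cannot be told apart.

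All 3 ESC arrays had the pluripotency regulators at high levels. Sox2 was at 12.12 in ESC 1, 12.22 in ESC 2 and 12.46 in ESC 3, against 11.92 to 12.16 (median 12.07) in the induced arrays, and Nanog was at 12.33, 12.88 and 13.15 in the same ESC order, against 12.37 to 12.76. The 28 measured markers of fibroblasts and feeders had a summed level of 223 in ESC 1, 213 in ESC 2 and 221 in ESC 3, against 221 to 238 in the induced arrays and 357 in TTF, and all 28 lay below TTF in every ESC array. Genes of chromosome X, which were left out of the comparison, did set the ESC arrays apart. Over 253 X-linked genes with a mean level of at least 7, the median difference was -0.72 for ESC 1 minus ESC 2 and -0.74 for ESC 1 minus ESC 3. The Y-linked gene Eif2s3y, a translation factor subunit chosen here after its values were seen, was at 3.73, 3.89 and 4.22 in the 3 ESC arrays, against 5.11 to 9.20 in the induced arrays. The part of X dosage in the autosomal differences below was not tested.

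The plot of replicate pairs shows how far the ESC arrays lay apart. ESC 1 and ESC 2 differed by at least 1 log2 unit at 450 autosomal genes, and ESC 1 and ESC 3 at 761. ESC 2 and ESC 3 differed at 177 genes, which lies within the range of the TiPSC pairs (18, 115 and 195 genes). The 115 and 195 genes both come from pairs with TiPSC 3. Over chromosome 8 genes with a mean level of at least 7, TiPSC 3 had a median 0.42 above the induced mean. The other induced arrays had -0.13 to -0.02 there, and the part of this in the pair counts was not tested. The 3 ViPSC pairs differed at 7, 1 and 0 genes. Against the single induced arrays, ESC 1 differed at 129 to 214 genes, ESC 2 at 396 to 676 and ESC 3 at 515 to 922. ESC 1 thus differed from every induced array at fewer genes than from either of the other ESC arrays.

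**Figure D1:**
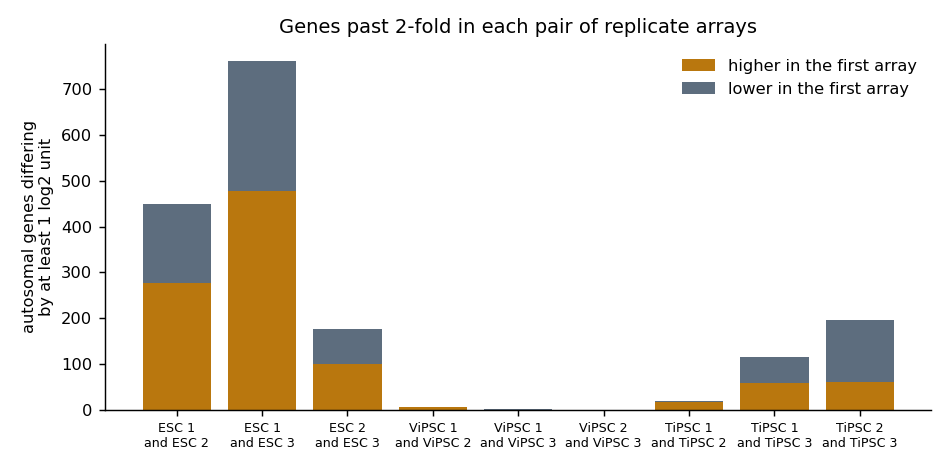
Autosomal genes that differed by at least 1 log2 unit in each of the 9 pairs of replicate arrays; bars start at 0 and are split into genes higher and lower in the first array named. The 2 pairs with ESC 1 hold 450 and 761 genes, while the pair of ESC 2 and ESC 3 (177) lies below TiPSC 2 with TiPSC 3 (195).

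ESC 1 was above both other ESC arrays at 209 genes (1.2% of those measured) and below both at 116 (0.667%). The smaller of the differences reached 2 log2 units at 16 of the higher and 13 of the lower genes. Of the 209 higher genes, 99 (47.4%) had ESC 1 above all 6 induced arrays, where 13.1% of all genes did, and 160 (76.6%) had ESC 2 and ESC 3 both below all 6, where 14.6% did. Both held for 69 genes, and neither for 19. At 91 of the 209 genes, ESC 1 lay below the highest induced array while ESC 2 and ESC 3 lay below the lowest. The first share depended on 1 array: without TiPSC 3, ESC 1 was above the remaining induced arrays at 64.1% of the higher genes. Just past the threshold lay Rac3, Ift46 and Car4, with smaller differences of 1.0035, 1.0055 and 1.0060, and just short of it Septin1, Nostrin and Ddah1, with 0.9997, 0.9963 and 0.9946. Other probe sets were present for 108 of the 209 genes. At 37 of the 108 another one passed the threshold too, and at 96 another one differed in the same direction.

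The endoderm lists held the gene with the highest difference in the set. Of 60 genes listed as endoderm regulators or effectors, 56 were measured, and 17 of these were higher in ESC 1 than in both other ESC arrays, none lower. Of all genes, 1.2% were higher and 0.667% lower, so finding none lower among the 56 says nothing particular. Medians below are over the 56 genes. The medians were 0.62 for ESC 1 minus ESC 2 and 0.59 for ESC 1 minus ESC 3, beside 0.04 and 0.01 over all genes. ESC 1 was the highest of the 3 ESC arrays at 42 of the 56 genes (75%), where it was at 42.3% of all genes. The lists were drawn up with results of these arrays known, so the counts describe the arrays and support nothing further.

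Among the regulators, Gata6, the factor that commits inner cell mass cells to primitive endoderm, stood out. Its level was 7.01 in ESC 1, 4.09 in ESC 2 and 3.89 in ESC 3, against 4.14 to 4.503 (median 4.37) in the induced arrays. ESC 1 alone was raised, by 2.92 over the nearer ESC array (7.55-fold), while ESC 2 and ESC 3 lay just below the induced range. The 2 other Gata6 probe sets stayed under the threshold, at 4.65, 4.004 and 3.92 and at 3.86, 3.70 and 4.01 in the same ESC order. Sox17, which acts after Gata6 in the same lineage, was at 5.21 in ESC 1, 4.15 in ESC 2 and 3.78 in ESC 3, against 3.85 to 4.27 (median 4.07) in the induced arrays. A second Sox17 probe set was at 5.64, 3.62 and 3.75 in the same ESC order. Hhex, a homeobox gene of anterior endoderm, was at 7.52 in ESC 1, 6.25 in ESC 2 and 5.73 in ESC 3, against 6.36 to 6.68 (median 6.45). Each of these 3 genes had ESC 1 above every induced array.

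Other regulators stayed under the threshold in at least 1 of the differences. Gata4, the partner of Gata6, was at 4.92 in ESC 1, 4.25 in ESC 2 and 4.26 in ESC 3, against 3.89 to 4.25 (median 4.08) in the induced arrays. Foxa2, a forkhead factor of visceral and definitive endoderm, was at 4.58, 3.59 and 3.42 in the same ESC order. Pdgfra, a receptor on primitive endoderm cells, was at 6.05 in ESC 1 and 5.17 in both ESC 2 and ESC 3, against 4.67 to 5.30 (median 4.91). Those 3 genes also had ESC 1 as the highest, with smaller differences of 0.67, 0.99 and 0.88. Sox7 differed less, at 6.95, 6.75 and 6.36, and Hnf4a, which marks later visceral endoderm, was at 4.69, 4.96 and 4.96 with ESC 1 the lowest.

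Effectors of protein uptake included Cubn, the gene with the highest difference in ESC 1. Cubn encodes cubilin, an uptake receptor of visceral endoderm, and was at 8.63 in ESC 1, 3.27 in ESC 2 and 3.34 in ESC 3, against 3.18 to 3.63 (median 3.34) in the induced arrays. ESC 1 was 39.1-fold above the nearer ESC array, and no other pluripotent array reached a level of 4. A second Cubn probe set was at 7.34 in ESC 1, 3.48 in ESC 2 and 3.64 in ESC 3. Dab2, the adaptor that couples such receptors to clathrin, was at 7.90 in ESC 1, 4.59 in ESC 2 and 4.58 in ESC 3, against 4.57 to 5.28 (median 5.00). Its 3 other probe sets had levels of 3.42 to 4.29 in the ESC arrays and had ESC 1 higher by at most 0.49, so the Dab2 difference rests on 1 probe set. Lrp2, which encodes megalin, the receptor that works with cubilin, was at 7.87 in ESC 1, 5.02 in ESC 2 and 5.82 in ESC 3, against 5.45 to 7.03 (median 5.95). Amn, whose product carries cubilin to the cell surface, was at 8.03, 6.98 and 7.39 in the same ESC order, against 6.10 to 6.35 in the induced arrays, so that all 3 ESC arrays exceeded them.

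Basement membrane genes differed by less than Cubn did. Lama1, the laminin chain of Reichert's membrane and other early basement membranes, was at 9.26 in ESC 1, 6.89 in ESC 2 and 7.56 in ESC 3, against 7.89 to 8.53 (median 8.38) in the induced arrays. Here ESC 1 lay above and both other ESC arrays below all induced arrays. The type IV collagen genes Col4a1 and Col4a2, transcribed in opposite directions from 1 shared promoter, had ESC 1 above the nearer ESC array by 1.21 and 1.12. The laminin partners Lamb1 and Lamc1 (0.59 and 0.08) and the nidogens Nid1 and Nid2 (-0.22 and 0.14) stayed under the threshold.

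Among the remaining effectors, Srgn had the next highest difference after Cubn (4.09). It encodes the core protein of a proteoglycan of secretory granules and was at 9.80 in ESC 1, 5.71 in ESC 2 and 5.33 in ESC 3, against 4.31 to 5.70 (median 5.19) in the induced arrays. Apoa2, an apolipoprotein gene, was at 8.81 in ESC 1, 7.03 in ESC 2 and 6.93 in ESC 3, against 8.13 to 8.80 (median 8.70) in the induced arrays, so ESC 1 lay at the upper edge of the induced range and the other ESC arrays below it. The simple-epithelium keratins Krt8 and Krt18 had ESC 1 inside the induced range and above the nearer ESC array by 1.32 and 1.17. Dkk1, a secreted Wnt antagonist of anterior visceral endoderm, was at 5.72, 4.39 and 4.32 in the ESC arrays, against 4.39 to 4.88. The plasma protein genes of mature visceral endoderm stayed near the bottom of the scale in all 3, with Afp at 4.66, 4.49 and 4.68 and Apob at 3.65, 3.54 and 3.54. Ttr was at 5.08, 4.76 and 4.66. Across the 17 genes, 12 (70.6%) had ESC 1 above all induced arrays, beside 13.1% of all genes and 47.4% of the 209. At 6 of them (35.3%) ESC 2 and ESC 3 were both below, beside 14.6% of all genes and 76.6% of the 209.

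**Figure D2:**
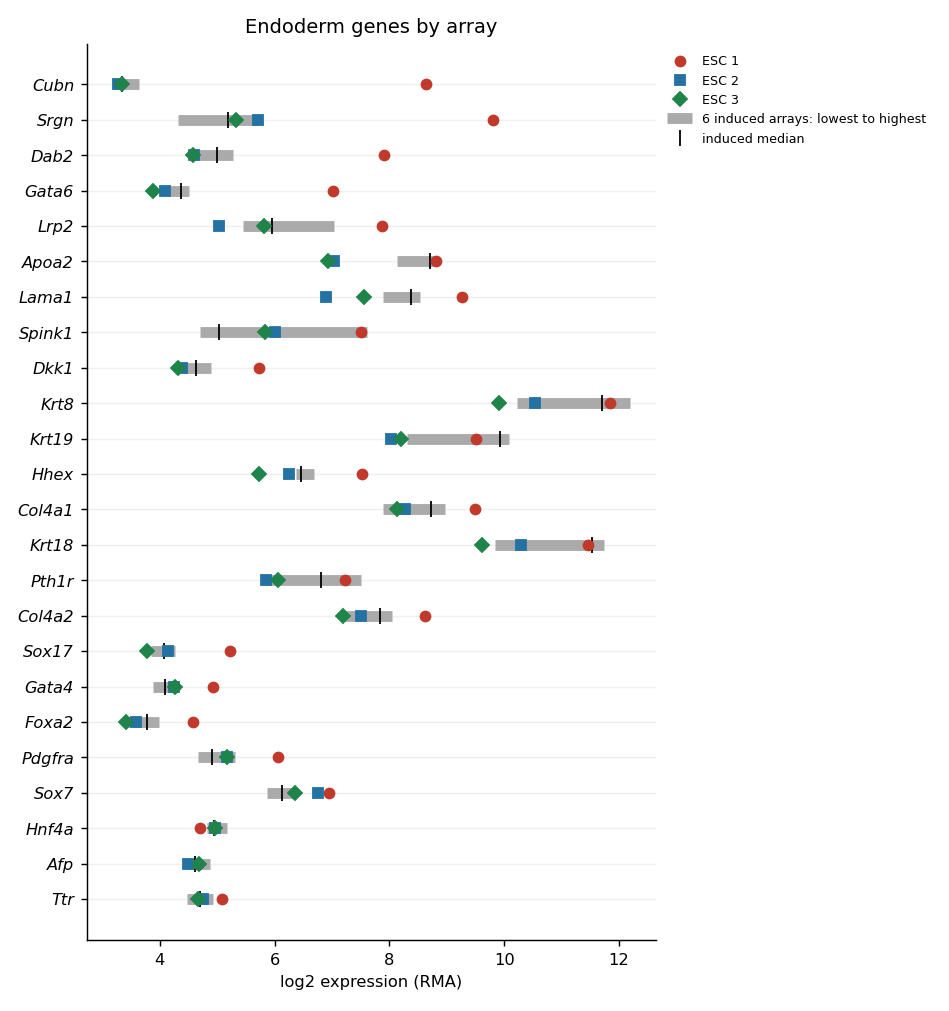
Log2 expression (RMA) of 24 endoderm genes in ESC 1 (circles), ESC 2 (squares) and ESC 3 (diamonds), with the lowest to highest of the 6 induced arrays as a grey bar and their median as a tick. Cubn, Srgn, Dab2 and Gata6 show 1 ESC 1 point far right of every other array, whereas for Krt8 and Krt18 ESC 1 sits inside the grey bar.

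VM also had high levels of several of these genes, such as Gata6 (10.84), Srgn (10.73) and Dab2 (8.97), and TTF had Dab2 at 8.92. Cubn reached 4.24 in TTF and 4.08 in VM, and Lrp2 3.49 and 3.28, all well under ESC 1. The 12 heart muscle markers had a summed level of 54.3 in ESC 1, 55.5 in ESC 2 and 56.0 in ESC 3, against 142 in VM, and the 10 endothelial markers 54.1, 52.1 and 53.8 against 100 in VM. The part of other cell types in the endoderm levels was not tested. Promoters of 12 of the 17 endoderm genes were in the RefSeq promoter table (GRCm38.p6). Within 250 bases before the start, GATAAG on either strand was found in 2 of them, Krt8 and Pth1r (16.7%), beside 7.60% of all genes of the table.

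Signalling genes made up another share of the 15 highest differences in ESC 1. Bmp4, a ligand that sustains self-renewal together with LIF, was at 10.01 in ESC 1, 7.35 in ESC 2 and 6.30 in ESC 3, against 7.94 to 9.37 (median 9.23) in the induced arrays. Sp5, a transcription factor and direct Wnt target, was at 7.41, 5.11 and 4.80 in the same ESC order, against 6.11 to 8.85 (median 6.36). Gbx2, a homeobox target of Stat3, was at 7.48, 5.18 and 4.79, against 6.18 to 8.23 (median 6.84). For Sp5 and Gbx2, ESC 1 lay inside the induced range and both other ESC arrays below it, while for Bmp4 ESC 1 was above the range too. Immediate early genes and targets of ERK signalling had medians of 0.45 for ESC 1 minus ESC 2 and 0.84 for ESC 1 minus ESC 3. Of 16 measured, 3 were higher in ESC 1, where 1.2% of all genes were. Among them were Fos (12.12 in ESC 1, 10.72 in ESC 2, 10.93 in ESC 3) and Dusp6 (10.62, 9.51 and 9.12), a phosphatase that ERK induces against itself.

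Enzymes and structural genes with high differences mostly placed ESC 1 at or near the induced range and the other ESC arrays below it. Gad1, which makes the transmitter GABA, was at 6.55 in ESC 1, 3.46 in ESC 2 and 3.42 in ESC 3, against 5.96 to 7.96 (median 6.17) in the induced arrays. Frem2, an extracellular matrix protein, was at 7.03, 4.50 and 4.58 in the same ESC order, against 6.89 to 7.42 (median 7.21). Gna14, a G protein subunit, was at 5.94, 3.51 and 3.63, against 5.49 to 6.48 (median 5.65). The actin gene Acta1 (8.51, 6.06 and 6.03) was just above an induced range of 6.47 to 8.45, and the calponin gene Cnn1 (7.42, 5.17 and 5.26) just inside one of 7.40 to 8.11. Tfec, a transcription factor of the Mitf family, was an exception, since it was at 5.45, 3.27 and 3.16, against 3.10 to 3.31 (median 3.22), and ESC 1 alone was raised. Pdk1, a kinase that holds pyruvate back from the mitochondria, was at 11.21, 9.75 and 9.58, against 10.72 to 11.02. It was 1 of 18 glycolysis and hypoxia genes, whose medians were 0.36 for ESC 1 minus ESC 2 and 0.22 for ESC 1 minus ESC 3. No other gene of that list passed the threshold, where 1.2% of all genes were higher in ESC 1. At 10 of the 18 ESC 2 and ESC 3 were both below all induced arrays, where 14.6% of all genes had this. The epithelial list was the highest in ESC 1 at all 11 measured genes, where ESC 1 was the highest at 42.3% of all genes. Its medians were 0.83 for ESC 1 minus ESC 2 and 1.20 for ESC 1 minus ESC 3. Of the 11, 4 passed the threshold, Cldn6, Krt8, Krt18 and Krt19, where 1.2% of all genes did. The 3 keratins are also among the 17 endoderm genes, so the lists are not separate groups. None of the 11 had ESC 1 above all induced arrays, where 13.1% of all genes did.

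Pluripotency genes differed in both directions. Zfp42 (Rex1), a zinc finger gene of the naive state, was at 11.51 in ESC 1, 9.75 in ESC 2 and 9.39 in ESC 3, against 9.58 to 10.06 (median 9.77) in the induced arrays. Zfp42 thus had ESC 1 above the induced range, ESC 2 inside it and ESC 3 just below. Prdm14, a repressor that protects the naive state, was at 7.51 in ESC 1, 8.71 in ESC 2 and 8.57 in ESC 3, against 6.95 to 8.13 (median 7.97). Tcl1, a co-activator of Akt, was at 9.67, 10.87 and 10.78 in the same order, against 9.27 to 9.62. In these 2 genes ESC 2 and ESC 3 lay above all induced arrays, while ESC 1 was inside the range at Prdm14 and just above it at Tcl1. Over the 21 genes of the naive and core list the medians were 0.04 for ESC 1 minus ESC 2 and -0.07 for ESC 1 minus ESC 3. Genes of the primed epiblast, the later state, were higher in ESC 1 at 4 of 18, namely Fgf5, Pou3f1, Lef1 and Fgf8, and lower at 1, the Nodal inhibitor gene Lefty2. The shares over all genes were 1.2% higher and 0.667% lower.

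Imprinted RNAs gave another group with ESC 1 above the induced arrays. Meg3, a maternally expressed long non-coding RNA, was at 10.61 in ESC 1, 9.16 in ESC 2 and 8.80 in ESC 3, against 6.24 to 7.41 (median 6.87) in the induced arrays. All 3 ESC arrays were above the induced range, and ESC 1 was highest. Of its 10 other probe sets, 5 also had ESC 1 past the threshold. Mirg, from the same locus, was at 7.91, 6.28 and 5.99 in the ESC arrays, against 3.94 to 4.28, and Rian, also from the locus, which the rule for named genes did not pick, was at 10.16, 8.49 and 8.99. Grb10, an adaptor that dampens insulin signalling, was at 10.01, 8.93 and 7.73, against 7.61 to 9.12. In all, 5 of 21 measured imprinted genes were higher in ESC 1, the last being Nnat, and none lower. Of all genes, 1.2% were higher and 0.667% lower, so finding none lower among 21 says nothing particular.

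Genes lower in ESC 1 were mostly genes raised in both other ESC arrays over the induced arrays. Of the 116 genes, 99 (85.3%) had ESC 2 and ESC 3 both above all 6 induced arrays, where 7.8% of all genes did. At 39 (33.6%), ESC 1 was below all induced arrays, where 13.2% of all genes were, and this share was 52.6% without TiPSC 3. The first of them was Pramel7, a PRAME family gene of the early embryo, at 4.12 in ESC 1, 7.62 in ESC 2 and 8.96 in ESC 3, against 3.58 to 5.78 (median 4.71) in the induced arrays. Its neighbour Pramel6 was at 4.25, 6.37 and 8.17 in the same ESC order, against 4.03 to 5.65 (median 4.66). Both genes had ESC 1 inside the induced range, and ESC 3 above ESC 2. A second probe set of each passed the threshold in ESC 1 minus ESC 3 and not in ESC 1 minus ESC 2. The threshold itself lay between Psma8, Mavs and Col9a2 (-1.0019, -1.0074 and -1.0076) and Aldh1a2, Tubb2a and Slfn9 (-0.9961, -0.9911 and -0.9908).

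Meiotic and germline genes were among the lower genes. Hormad1, a protein of meiotic chromosome axes, was at 5.08 in ESC 1, 7.26 in ESC 2 and 7.73 in ESC 3, against 4.75 to 5.69 (median 5.29) in the induced arrays. Sohlh2, a helix-loop-helix factor of young germ cells, was at 6.39, 8.59 and 9.04 in the same ESC order, against 5.70 to 7.05 (median 6.72). Mael, a piRNA pathway gene, was at 6.33, 7.80 and 8.004, against 6.16 to 6.96 (median 6.65). At these 3 genes ESC 1 lay inside the induced range, and the other ESC arrays were above it. Of 16 genes on the germline list, 4 were lower in ESC 1 (Dazl, Mael, Stk31 and Hormad1) and none higher. Since 0.667% of all genes were lower and 1.2% higher, finding none higher among 16 says nothing particular. The list medians were -0.23 for ESC 1 minus ESC 2 and -0.90 for ESC 1 minus ESC 3. ESC 3 was the highest ESC array at 13 of the 16 genes (81.3%), where it was at 35.1% of all genes.

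Promoters of 3 of these genes are printed because they differ in CG content, the sequence that carries the methylation known to silence germline genes. Each is the stretch of 250 bases before the start in RefSeq (GRCm38.p6), 5′ to 3′ along the gene, with every CG in capitals.
Dazl (chr17:50293621-50293870, minus strand): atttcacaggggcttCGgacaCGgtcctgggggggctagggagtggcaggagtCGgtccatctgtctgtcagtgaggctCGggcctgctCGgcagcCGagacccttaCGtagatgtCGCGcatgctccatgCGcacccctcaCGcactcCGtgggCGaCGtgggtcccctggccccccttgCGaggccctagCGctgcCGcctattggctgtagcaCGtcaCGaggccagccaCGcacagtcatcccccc
Hormad1 (chr3:95559427-95559676, plus strand): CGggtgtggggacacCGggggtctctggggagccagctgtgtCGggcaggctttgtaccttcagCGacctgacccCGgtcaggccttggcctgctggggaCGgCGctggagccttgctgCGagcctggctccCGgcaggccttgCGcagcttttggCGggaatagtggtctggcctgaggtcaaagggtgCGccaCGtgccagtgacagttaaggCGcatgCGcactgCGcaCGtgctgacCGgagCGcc
Pramel7 (chr2:87492419-87492668, minus strand): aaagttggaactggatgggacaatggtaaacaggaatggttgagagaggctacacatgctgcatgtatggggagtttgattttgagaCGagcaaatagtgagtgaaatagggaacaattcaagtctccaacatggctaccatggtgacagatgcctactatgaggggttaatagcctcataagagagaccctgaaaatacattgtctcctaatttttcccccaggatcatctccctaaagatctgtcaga
The Dazl stretch holds 20 CG, the Hormad1 stretch 19 and the Pramel7 stretch 1. Over 32851 promoters of the table the median was 6, with quartiles of 2 and 16, so the first 2 lie above the upper quartile and Pramel7 below the lower one. Mael and Sohlh2 held 18 and 14, and Pramel6 held 2. No methylation was measured in these samples.

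Other lower genes belonged to varied classes. Pzp, a protease inhibitor of the alpha-2-macroglobulin family, was at 5.23 in ESC 1, 7.63 in ESC 2 and 8.06 in ESC 3, against 5.05 to 6.60 (median 5.93) in the induced arrays. Nnmt, which methylates nicotinamide, was at 5.32, 7.64 and 7.78 in the same ESC order, against 4.42 to 5.96 (median 5.43). Calcoco2, an autophagy receptor that also stood on the 2-cell-like list, was at 9.61, 11.72 and 12.05, against 9.78 to 11.41 (median 10.58). Oas1a, an interferon-induced sensor of viral RNA, was at 7.21, 9.13 and 9.56, against 6.88 to 8.79 (median 8.42). Smad6, an inhibitor and target of BMP signalling, was at 5.95, 7.56 and 7.85, against 5.78 to 6.60 (median 6.31). Dpys, an enzyme of pyrimidine breakdown, differed from these. Its level was 5.32 in ESC 1, 8.16 in ESC 2 and 7.51 in ESC 3, against 7.43 to 9.03 (median 8.74), so that here ESC 1 was the departing array.

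**Figure D3:**
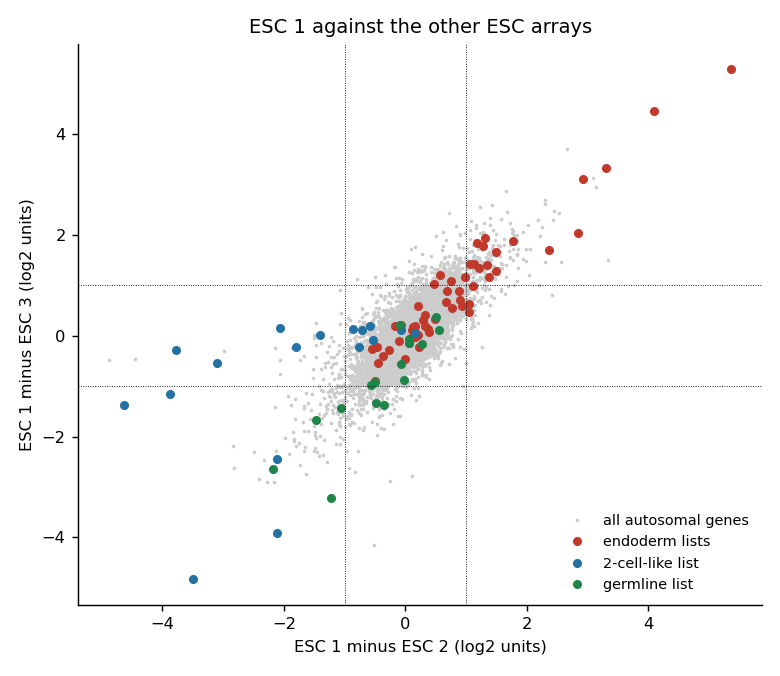
Differences of ESC 1 from ESC 2 (horizontal axis, log2 units) and from ESC 3 (vertical axis, log2 units) for 17400 autosomal genes, with the endoderm, 2-cell-like and germline lists coloured and dotted lines at differences of 1. Endoderm genes reach past 5 at the upper right (Cubn), germline genes and Pramel7 lie at the lower left, and a row of 2-cell-like genes lies far left with ESC 1 near ESC 3.

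ESC 2 was higher than ESC 3 at 100 genes (0.575% of those measured) and lower at 77 (0.443%). At 8 of the higher and 4 of the lower genes the difference reached 2 log2 units. Of the 100 higher genes, 49 had ESC 2 above all induced arrays, where 14.4% of all genes did, and 63 had ESC 3 below all, where 24.9% did. Of the 77 lower genes, 27 had ESC 2 below all induced arrays, where 26.1% of all genes did, and 55 had ESC 3 above all, where 19.6% did. Counted over every autosomal probe set in place of 1 per gene, ESC 2 was higher at 455 and lower at 118, so the higher share was 79.4% in place of 56.5%. Atf5, Ddit4l and Mfsd13a lay just inside the upper limit (1.0004, 1.0010 and 1.0012) and S100a1, Ciart and Tet1 just outside (0.9943, 0.9938 and 0.9929). At the lower limit Mdfic, Acbd4 and A2m (-1.0031, -1.0097 and -1.0102) stood inside and Ccdc88a, Zfp941 and Fnip1 (-0.9924, -0.9850 and -0.9823) outside.

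All 8 genes past 2 log2 units were far above every other pluripotent array in ESC 2, and 5 of them stood on the 2-cell-like list. ESC 3 was above all induced arrays at 7 of the 8 (87.5%), where 19.6% of all genes were. It was below all of them at 0 of the 8, where 24.9% of all genes were. Only 28 genes (0.161%) were higher in ESC 2 than in both ESC 1 and ESC 3, and 5 (0.0287%) lower. ESC 2 was above all induced arrays at all 28 and below them at all 5, where it was at 14.4% and 26.1% of all genes. The 2-cell-like list had 35 entries, of which 17 were measured, and 7 of the 17 were among the 28. Its medians were 1.80 for ESC 2 minus ESC 1 and 0.84 for ESC 2 minus ESC 3, beside -0.04 and -0.02 over all genes. Among genes with a mean level of at least 7 the second median turned to -0.33, which is the difference of Calcoco2 itself. That value thus describes Calcoco2 rather than the list. The first median was 1.18 with the mean of all probe sets of a gene. ESC 2 lay above all induced arrays at 15 of the 17 genes, and ESC 3 at 11, where they did at 14.4% and 19.6% of all genes.

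Genes of 2-cell embryos led the group. Tcstv1, named for the variable transcripts of 2-cell embryos, was at 7.22 in ESC 2, 3.71 in ESC 3 and 3.43 in ESC 1, against 3.24 to 3.38 (median 3.30) in the induced arrays. Its relative Tcstv3 was at 5.03 in ESC 2, 2.82 in ESC 3 and 2.97 in ESC 1, against 2.65 to 3.08 (median 2.80). Both were near the bottom of the scale in every array but ESC 2. AF067061 was at 10.37 in ESC 2, 7.11 in ESC 3 and 5.74 in ESC 1, against 5.66 to 6.22 (median 5.84). ESC 3 thus lay above the induced range here too, as it did at Tcstv1. Zfp352, a zinc finger gene of the 2-cell stage, was at 7.02 in ESC 2, 4.45 in ESC 3 and 3.91 in ESC 1, against 3.90 to 4.30 (median 4.03). A second Zfp352 probe set was at 6.51, 4.06 and 3.96 in the same order. Usp17la, a deubiquitinating enzyme, was at 7.52 in ESC 2, 4.80 in ESC 3 and 3.65 in ESC 1, against 3.90 to 4.38 (median 4.13).

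The gene with the highest difference was off the list. BC080696 was at 8.59 in ESC 2, 4.21 in ESC 3 and 3.72 in ESC 1, against 3.63 to 4.16 (median 3.87) in the induced arrays, which put ESC 2 20.9-fold above ESC 3. Gm20767 was at 7.53, 3.54 and 3.07 in the same order, and D13Ertd608e at 6.30, 3.61 and 3.31. Both lie on chromosome 13 beside Tcstv1. The 7 measured genes of that neighbourhood in RefSeq, which include AF067061, AF067063, BC147527 and Tcstv3, were all higher in ESC 2 than in ESC 1 and ESC 3. Its bounds were set from genes already seen to be high in ESC 2, all of the 7 but BC147527. The count was therefore largely fixed by that choice. Chromosome 13 held 9 of the 28 genes, beside 4.03% of all measured genes. Some of these genes are near-identical copies, so 1 transcript may be read by several probe sets, and the 7 do not count as separate observations.

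Promoters of AF067061 and Zfp352 are shown because these 2 genes were high together in ESC 2 from different chromosomes. Each stretch is the 250 bases before the start in RefSeq (GRCm38.p6), 5′ to 3′ along the gene, with the letters TATAA in capitals.
AF067061 (chr13:120262845-120263094, plus strand): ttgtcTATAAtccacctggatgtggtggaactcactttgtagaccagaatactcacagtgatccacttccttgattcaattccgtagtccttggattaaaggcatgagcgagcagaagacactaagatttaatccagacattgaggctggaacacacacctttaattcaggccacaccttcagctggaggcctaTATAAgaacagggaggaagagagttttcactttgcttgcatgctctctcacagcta
Zfp352 (chr4:90218570-90218819, plus strand): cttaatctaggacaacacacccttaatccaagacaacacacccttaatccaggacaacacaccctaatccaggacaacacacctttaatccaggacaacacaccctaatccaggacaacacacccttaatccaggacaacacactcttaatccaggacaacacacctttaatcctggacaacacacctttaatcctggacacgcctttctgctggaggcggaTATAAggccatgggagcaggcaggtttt
The TATAA nearest the start began at position -56 in AF067061 and -28 in Zfp352, counted from -1 at the base before the start. Read along the gene, TATAA occurred in 16.0% of the 32851 promoters of the table. Usp17la held none.

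Weaker members of the list mostly had ESC 2 as the highest as well. Arg2, an arginase, was at 4.99 in ESC 2, 3.56 in ESC 3 and 3.58 in ESC 1, against 3.48 to 3.81 (median 3.61) in the induced arrays. Duxf3, the symbol under which the table holds Dux, was at 3.84, 3.39 and 3.30 in the same order, against 3.18 to 3.30. Its difference of 0.45 stayed under the threshold, and its levels were near the bottom of the scale, where RMA compresses differences. Ubtfl1 (4.20, 3.36 and 3.48) and Spz1 (3.59, 3.06 and 2.83) also stayed under it with ESC 2 highest. The 4 genes at which ESC 2 was not the highest were Trim60, Calcoco2, Pramel6 and Pramel7, with ESC 2 minus ESC 3 at -0.10, -0.33, -1.80 and -1.34.

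Of the 10 measured regulators of the 2-cell-like state, none passed the threshold for ESC 2 against ESC 3 or for 1 array against both others. With 0.575% of all genes higher and 0.443% lower in ESC 2 than in ESC 3, a count of 0 among 10 says nothing particular about them. Dppa2, which binds the Dux promoter with Dppa4, was at 11.58 in ESC 2, 10.80 in ESC 3 and 10.45 in ESC 1, against 10.61 to 11.46 (median 11.31) in the induced arrays, so that ESC 2 was just above the induced range. Dppa4 was at 11.26, 11.04 and 11.50 in the same order. The repressors Trim28 (13.28, 13.29 and 13.29) and Kdm1a (11.87, 12.01 and 12.11) differed by at most 0.24 among the 3 ESC arrays.

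**Figure D4:**
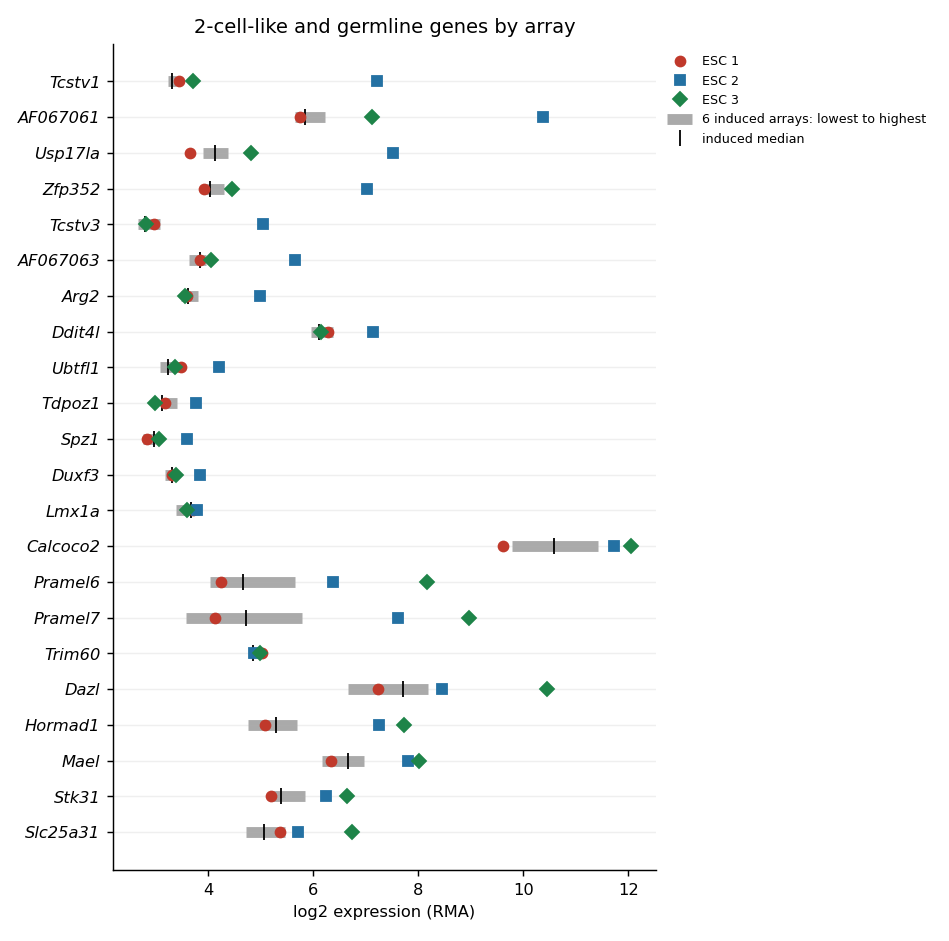
Log2 expression (RMA) of the 17 measured 2-cell-like genes and 5 germline genes in ESC 1 (circles), ESC 2 (squares) and ESC 3 (diamonds), with the range of the 6 induced arrays as a grey bar and their median as a tick. ESC 2 stands alone to the right from Tcstv1 to Arg2, while ESC 3 is furthest right for Pramel6, Pramel7 and Dazl.

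Away from that list, genes higher in ESC 2 than in ESC 3 were often those low in ESC 3. Malat1, a nuclear long non-coding RNA, was at 12.46 in ESC 2, 10.47 in ESC 3 and 11.38 in ESC 1, against 10.60 to 12.41 (median 11.30) in the induced arrays. Of its 6 other probe sets, 3 also passed the threshold. Irs2, an adaptor of the insulin receptor, was at 7.73 in ESC 2, 6.09 in ESC 3 and 7.82 in ESC 1, against 7.497 to 8.30 (median 7.64). Parvb, a focal adhesion protein, was at 7.89, 6.17 and 8.61 in the same order, against 7.53 to 8.37 (median 7.77). Olig1, a helix-loop-helix factor, was at 8.11, 6.44 and 7.61, against 7.51 to 8.10 (median 7.76). At Irs2, Parvb and Olig1, ESC 3 alone lay below the induced range.

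ESC 3 was above both other ESC arrays at 49 genes (0.282%) and below both at 46 (0.264%). It lay above all induced arrays at 44 of the 49, where it did at 19.6% of all genes. It lay below all of them at 42 of the 46, where it did at 24.9% of all genes. Both sets were chosen by ESC 3 standing apart from the other ESC arrays, so these counts are description only. Obox6, an oocyte homeobox gene, was at 7.86 in ESC 3, 3.70 in ESC 1 and 4.21 in ESC 2, against 3.65 to 4.94 (median 4.01) in the induced arrays. Meioc, which prolongs meiotic prophase, was at 8.23 in ESC 3, 5.46 in ESC 1 and 5.34 in ESC 2, against 5.36 to 6.92 (median 6.28). ESC 3 exceeded all 8 other pluripotent arrays at both genes. Nlrp4c, an NLR family gene of oocytes, was at 6.81 in ESC 3, 3.93 in ESC 1 and 4.18 in ESC 2, against 3.54 to 4.33 (median 4.04). Dazl encodes a germ cell protein that binds RNA and was at 10.44 in ESC 3, 7.22 in ESC 1 and 8.44 in ESC 2, against 6.66 to 8.19 (median 7.71). At Dazl the ESC arrays thus formed 3 separate levels, which its second probe set repeated at 9.38, 6.88 and 8.14. Slc25a31, a nucleotide carrier of sperm mitochondria, was at 6.73 in ESC 3, 5.36 in ESC 1 and 5.72 in ESC 2, against 4.72 to 5.45 (median 5.06). Miip, an inhibitor of cell migration, instead had ESC 2 far below the other ESC arrays, at 8.13 in ESC 3, 8.95 in ESC 1 and 6.54 in ESC 2, against 8.29 to 8.46 (median 8.38).

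Imprinted growth regulators were among the genes low in ESC 3. Grb10, already named, was at 7.73 in ESC 3, 10.01 in ESC 1 and 8.93 in ESC 2. Cdkn1c, an inhibitor of cyclin-dependent kinases, was at 6.77 in ESC 3, 7.97 in ESC 1 and 8.30 in ESC 2, against 7.36 to 8.85 (median 8.32) in the induced arrays. Phlda2, a placental growth inhibitor, was at 8.95, 10.31 and 9.98 in the same order. Cdkn1c and Phlda2 lay outside the rule for named genes and were picked after their values were seen, since they complete the count of 3 imprinted genes low in ESC 3. None of the 21 imprinted genes was high in ESC 3 by the same measure. Of all genes, 0.264% were low and 0.282% high in ESC 3, so finding none high among 21 says nothing particular about them.

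Genes of chromosome 11 were prominent in the difference of ESC 2 and ESC 3. Of the 77 genes lower in ESC 2, 19 (24.7%) lay on chromosome 11, which held 8.29% of the measured autosomal genes, and it held 11 of the 49 genes high in ESC 3. Over 644 genes of chromosome 11 with a mean level of at least 7, the median of ESC 2 minus ESC 3 was -0.40, and 91.6% were higher in ESC 3. The other autosomes had medians of -0.02 to 0.08. For ESC 1 minus ESC 3 the median on chromosome 11 was -0.27, against 0.02 to 0.19 on the other autosomes. The induced arrays split there as well, with the ViPSC arrays 0.21 to 0.23 above the induced mean and the TiPSC arrays at -0.23 to -0.21. On that scale ESC 1 stood at -0.20 and ESC 3 at 0.08, both inside the induced range, and ESC 2 at -0.31, below it. Without chromosome 11, ESC 2 was higher at 96 genes and lower at 58. Meioc, Slc13a5 and Ifi35 were among the named genes on this chromosome, and the part of its dosage in their levels was not tested.

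**Figure D5:**
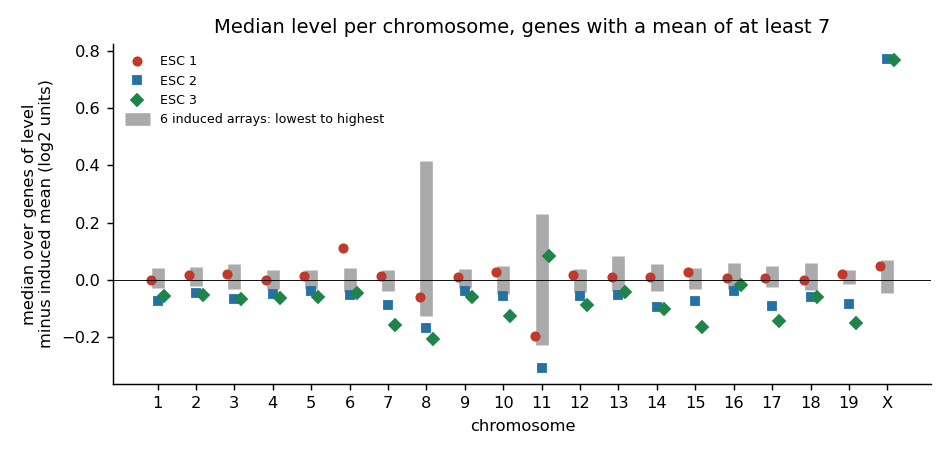
Median over genes, per chromosome, of each ESC array minus the mean of the induced arrays (log2 units, genes with a mean level of at least 7), with the lowest to highest of the 6 induced arrays as a grey bar. ESC 2 and ESC 3 sit near 0.77 on chromosome X with ESC 1 at 0.05, and on chromosome 11 ESC 2 (-0.31) lies below the grey bar and ESC 3 (0.08) inside it.

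Several lists had no gene past the threshold. No member of the neural (10 measured), trophoblast (11), cell cycle (13), heat shock (9), heart muscle (12), blood (9), p53 (13) or DNA methylation and polycomb (18) lists had 1 ESC array past the threshold against both others. Since each such call took in 0.0287% to 1.2% of all genes, a count of 0 in lists of this size says nothing particular about them. Of the 28 fibroblast and feeder markers 1 did, Tagln, which encodes the actin-binding protein transgelin and was at 10.51 in ESC 1, 9.01 in ESC 2 and 8.91 in ESC 3, against 9.34 to 10.86 in the induced arrays. The collagens Col1a1 and Col3a1 were at 6.50 and 7.59 in ESC 1, against 6.09 and 7.19 in ESC 2, 6.11 and 7.89 in ESC 3 and 13.33 and 14.38 in TTF.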

How the data were processed

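Expression was measured on 11 mouse expression arrays, 3 of them of embryonic stem cells. The deposited values are log2 expression values that the authors made by RMA, per the submitters' processing notes, and the version and probe annotation behind them are not given in the sources used here. The table gives no detection calls, RMA compresses differences near the bottom of the scale, and precision is limited by how few arrays there are. Of 45101 probe sets, 34945 carried 1 gene symbol in the platform annotation, of which 34741 were matched to current RefSeq symbols. Control probe sets (64) and those with several symbols (932) or none (9160) were left out, as were genes of chromosomes X and Y. The highest of a gene's probe sets by mean level stood for it, which left 17400 autosomal genes, 8675 of them with several probe sets.

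Differences were subtracted array by array, and a fold is 2 to the power of that difference. For an array against both others, the difference given is the smaller one, called the difference from the nearer array. No test was made, since the differences chose the genes and each side is 1 array. The genes and the 26 lists were chosen with earlier results of these data known. Named are the 15 highest and 15 lowest differences of ESC 1 and of ESC 2 against ESC 3, all measured genes of the endoderm, 2-cell-like and 2-cell regulator lists, up to 5 genes of each other list by spread among the ESC arrays, and fixed cell type markers. Promoter sequences came from the RefSeq promoter table (GRCm38.p6). Tools were Python 3.11.15, pandas 2.3.3, numpy 2.4.6 and scipy 1.17.1, and the scripts were tested on simulated data.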

Additional observations from a re-analysis of the deposited data

Results flagged for a closer look

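Genes of chromosome X were left out of the comparison but carried a difference. Their median level was 0.770 log2 units above the mean of the induced arrays in ESC 2 and 0.767 above it in ESC 3, against 0.05 in ESC 1, while the 6 induced arrays lay between -0.05 and 0.07 of their own mean. Of 253 X-linked genes with a mean level of at least 7, 232 (91.7%) were higher in both ESC 2 and ESC 3 than in ESC 1.

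Probe sets that carry several gene symbols were not used for any gene. Of these 932 probe sets, 13 were at least 1 log2 unit higher in ESC 2 than in both ESC 1 and ESC 3, and at 12 of the 13 ESC 2 lay above all 6 induced arrays. The same measure was met by 2 of them in ESC 1 and 8 in ESC 3. The 13 make up 1.39% of these probe sets, and their largest difference was 3.57. Among the autosomal genes, 0.161% met the measure in ESC 2, 1.2% in ESC 1 and 0.282% in ESC 3.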

How the results depend on the processing

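No paired analysis was possible because no result comes from a test, and the shared replicate numbers are not tied to shared cultures in the labels. Of 162 values under alternatives, 120 stayed close to the value reported, 41 moved and 1 reversed. At 2 log2 units the counts were 16 and 13 for ESC 1 higher and lower, and 8 and 4 for ESC 2 above and below ESC 3, by construction. The pairs then held 50 (ESC 1 with ESC 2), 88 (ESC 1 with ESC 3) and 12 genes (ESC 2 with ESC 3), against 8 in the highest induced pair. ESC 1 was then above the induced arrays at 56.3% of its higher genes and below them at 23.1% of its lower genes. The other ESC arrays were opposite at 68.8% and 92.3%. ESC 2 was above the induced arrays at 100% of the 8 genes and ESC 3 above them at 100% of the 4. ESC 3 was below them at 0 and above them at 7 of the 8, and ESC 2 was below at 1 of the 4. With a mean level of at least 7, fewer genes entered, and the 4 counts were 101, 46, 48 and 22 and the pairs 188, 388, 70 and 86. ESC 2 and ESC 3 were then below the induced arrays at 82.2% of the genes higher in ESC 1, ESC 2 was above them at 25% of the genes higher than in ESC 3, and ESC 3 above them at 36.4% of those lower in ESC 2. The endoderm medians became 0.93 and 1.09. The 2-cell-like medians became 2.11 for ESC 2 minus ESC 1 and, reversed, -0.33 for ESC 2 minus ESC 3, since most of that list lay below this level. Both values are those of Calcoco2, so they describe that gene rather than the list. With the mean of all probe sets of a gene, ESC 2 was above ESC 3 at 60 genes, that pair differed at 115, the highest induced pair at 123, and the 2-cell-like median over ESC 1 was 1.18. Counted over every probe set, ESC 2 was higher at 455 and lower at 118. Centring each array on its median brought the median over all genes to -0.09 for ESC 1 minus ESC 2 and for ESC 1 minus ESC 3, the endoderm median for ESC 1 minus ESC 2 to 0.49 and the 2-cell-like median over ESC 1 to 1.92. Without chromosome 11, an alternative chosen after seeing the data, that median was 1.60. Leaving out 1 ESC array gave 277 to 477 genes higher and 173 to 284 lower in ESC 1, the upper values without ESC 2. Leaving out 1 induced array gave 47.4% to 64.1% of the higher genes with ESC 1 above, and 34.5% to 52.6% of the lower genes with ESC 1 below, the upper values without TiPSC 3. Where no construction is named, the cause was not tested. Of 78 named differences, 65 still passed 1 log2 unit with the mean of all probe sets, 76 with centred arrays and 78 after a further quantile normalization, and none reversed. Many 2-cell-like genes lay near the bottom of the scale in ESC 1 and the induced arrays, which limits the precision of their differences.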

Other observations

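Genes of the ATF4 and endoplasmic reticulum stress list tended to be higher in ESC 1, which was the highest ESC array at 12 of 16 (75%), where it was at 42.3% of all genes. The list medians were 0.30 for ESC 1 minus ESC 2 and 0.43 for ESC 1 minus ESC 3, beside 0.04 and 0.01 over all genes. ESC 1 was above all induced arrays at 0 of the 16, where it was at 13.1% of all genes. ESC 2 was below them at 8 and ESC 3 at 9, where they were at 26.1% and 24.9% of all genes. Atf3, a factor induced by the ATF4 arm of the stress response, was at 8.39 in ESC 1, 7.19 in ESC 2 and 6.86 in ESC 3, against 7.33 to 8.49 (median 7.53) in the induced arrays. Cth, an ATF4 target that makes cysteine, ran the other way, at 9.70, 11.33 and 10.84 in the same ESC order, against 9.86 to 10.80 (median 10.03). These were the only members of the 16 with ESC 1 past the threshold against both others, where 1.2% of all genes were higher and 0.667% lower. Chac1, which degrades glutathione, was lower in ESC 3 than in both others, at 6.30 in ESC 3, 7.61 in ESC 1 and 7.38 in ESC 2, against 6.71 to 8.69 (median 7.52).

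Of 17 interferon and MHC class I genes, 2 had 1 ESC array past the threshold against both others, 1 high in ESC 1 and 1 high in ESC 3. Of all genes, 1.2% were high in ESC 1 and 0.282% in ESC 3. Oasl2, an interferon-induced gene, was at 4.79 in ESC 1, 3.58 in ESC 2 and 3.68 in ESC 3, against 3.44 to 5.29 (median 4.82) in the induced arrays. Ifi35, an interferon-induced gene on chromosome 11, was at 8.99 in ESC 3, 6.69 in ESC 1 and 7.48 in ESC 2, against 6.14 to 9.04. All 3 ESC arrays lay inside the induced range at both genes.

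Some sex-linked genes, chosen after their values were seen, varied within the ESC arrays as well. Xist, the RNA that coats the inactive X chromosome, was at 6.40 in ESC 1, 8.06 in ESC 2 and 7.26 in ESC 3, against 5.88 to 6.33 in the induced arrays. The reproductive homeobox gene Rhox6 was at 9.31 in ESC 1, 10.60 in ESC 2 and 10.68 in ESC 3, against 10.57 to 10.96 in the ViPSC arrays and 7.23 to 7.97 in the TiPSC arrays. Rhox9 was at 9.07, 10.65 and 10.81 in the same ESC order, against 10.50 to 10.78 in ViPSC and 6.92 to 7.54 in TiPSC.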
